A study of Mus musculus with 8 samples.

Results

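The nuclear genes for the subunits of respiratory complexes II, III, IV and V, together with the electron carrier cytochrome c, were followed in the small intestine of mice under low oxygen. Members were chosen by gene name alone: names of the forms Sdha to Sdhd, Uqcr, Cox4i, Cox5, Cox6, Cox7, Cox8 and Atp5, plus Cyc1 and Cycs, without names marked -ps as pseudogenes. This gave 51 of the 55421 genes in the files, 4 in complex II, 9 in complex III, 1 for cytochrome c, 19 in complex IV and 18 in complex V. Bulk total RNA of 8 wild-type mouse samples was sequenced: 4 of Hypoxia+Nitrate, from mice held at 7% oxygen for 7 days with 4 mM nitrate as a supplement, and 4 of Hypoxia, from mice held at 7% oxygen for 7 days without it. All 8 samples thus share the low oxygen, and no sample at normal oxygen was analysed here. The sources used here give no strain, sex or age, and do not say that the samples of a group came from separate animals, so a p-value reflects how far these samples spread, which may be technical. The question was how transcripts for these enzymes stood with nitrate, which bacteria and tissues can turn into nitric oxide, given under hypoxia.

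Complex II oxidises succinate in the citric acid cycle and passes the electrons to ubiquinone. Complex III hands them from ubiquinol to cytochrome c, complex IV uses them to reduce oxygen to water, and complexes III and IV pump protons across the inner mitochondrial membrane. Complex V, the ATP synthase, lets the protons back in and makes ATP. Complex II is built from nuclear genes alone, whereas complexes III, IV and V each combine nuclear subunits with a few that the mitochondrial genome encodes. The absorptive epithelium of the small intestine is rich in mitochondria, which supply ATP for nutrient transport.

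The libraries of each group differed strongly in content. Total counts ranged from 8662279 to 63943036 in Hypoxia+Nitrate and from 5345377 to 21835865 in Hypoxia. Protein-coding transcripts of the mitochondrial genome took 63.98%, 7.31%, 6.9% and 49.3% in Hypoxia+Nitrate 1 to 4, against 0.680%, 0.905%, 1.06% and 0.423% in Hypoxia 1 to 4. A ribosomal DNA locus took 2.33% to 22.0% of counts in Hypoxia+Nitrate and 7.06% to 75.7% in Hypoxia. The background was estimated from 1470 odorant, vomeronasal and trace-amine receptor genes, on the assumption that gut cells hardly transcribe them. It amounted to 2.79% to 23.6% of nuclear protein-coding counts in Hypoxia+Nitrate and 39.8% to 64.9% in Hypoxia. Markers of enterocytes, the absorptive cells, summed to 1348 to 45662 CPM in Hypoxia+Nitrate and 54.6 to 820.1 CPM in Hypoxia, and all 10 of 10 were higher in Hypoxia+Nitrate (median log2 fold change 6.18). Summed, these defining markers of the labelled tissue stood at 1815 times the background in Hypoxia+Nitrate and at 8.99 times in Hypoxia. None was at 0 in either group. Single ratios in Hypoxia ran from 0.858 times the background for Sis to 115 times for Apoa4, so Sis was not above the background there. Markers of other cells of the gut were called higher in whole or in part. These were 6 of 6 of Paneth cells (median log2 fold change 3.36), 3 of 6 of goblet cells (3.09), 4 of 6 of immune cells (2.51) and 6 of 6 of smooth muscle (2.63). Muc2, Fcgbp and Clca1 of goblet cells and Ptprc and Cd79a of immune cells did not pass. Of the nuclear protein-coding genes tested in the same fit, 18.5% were called higher. None of 5 erythroid markers (1.34) and none of 5 tested markers of the exocrine pancreas (-2.42) passed. In bulk tissue, fewer cells of a type and less RNA per cell cannot be told apart. Background, 1 part of library content, was subtracted or fitted as a covariate in alternatives given below. The covariate fit cannot tell it apart from the group. The part that other library content and cell makeup play in the values below was not tested.

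Of the 51 members, 47 passed the filter on low counts and 43 of these were higher in Hypoxia+Nitrate at an adjusted p under 0.05 (edgeR quasi-likelihood test, Benjamini-Hochberg over all 35431 genes tested), while none was lower. Across all genes tested, 11.7% were called higher and 12.7% lower. Among the nuclear protein-coding genes tested, 18.5% were called higher. The median log2 fold change was 3.93 over the tested members and -0.58 over all genes. The 4 members that did not pass were Cox6b2, Cox4i2, Cox6a2 and Cox6c2, and the 4 that were too low to test were Cox7b2, Cox8b, Cox8c and a second Ensembl identifier annotated as Atp5o. For each of the 43 called members every Hypoxia+Nitrate library lay above every Hypoxia library in CPM (counts scaled to library size with TMM factors), as did 12.0% of all genes, while 28.8% of all genes lay wholly below. The gap was widest for Atp5h, whose lowest Hypoxia+Nitrate value was 4.74 times its highest Hypoxia value, and narrowest for Uqcrc1, at 1.46 times.

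**Figure D1:**
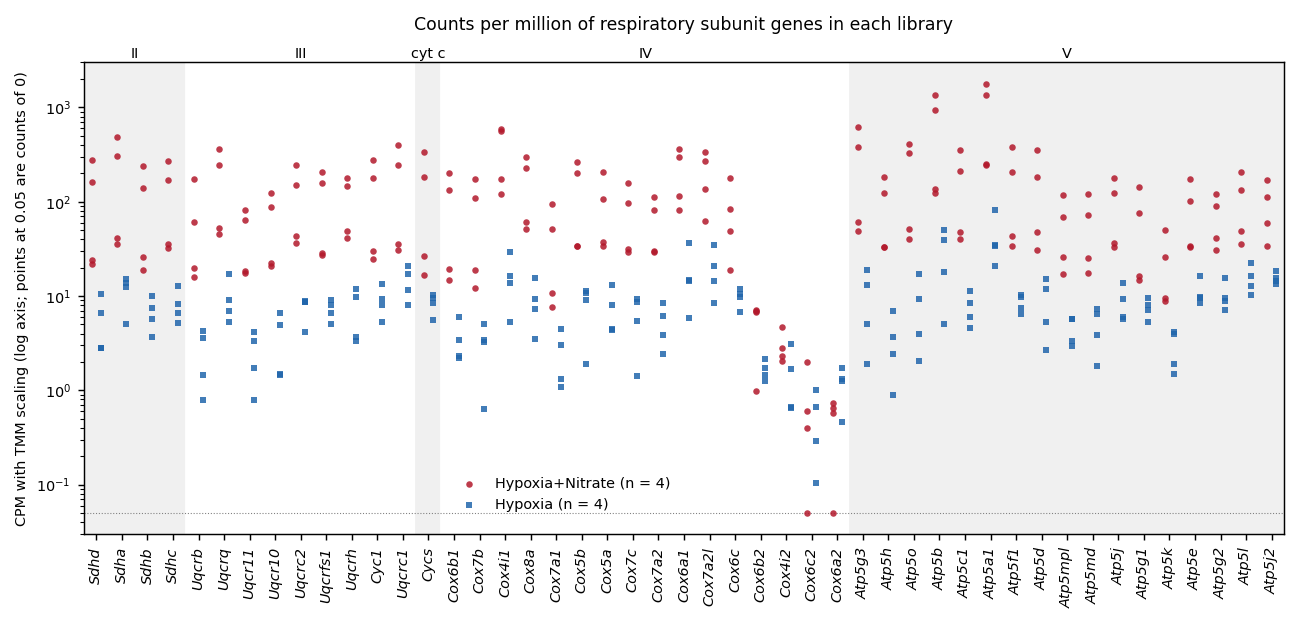
CPM on a log axis for each tested member, with a point for each of the 4 Hypoxia+Nitrate and 4 Hypoxia libraries. The clouds of the groups are apart for the 43 called members and meet or cross for Cox6b2, Cox4i2, Cox6c2 and Cox6a2.

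The Hypoxia+Nitrate libraries themselves fell into a high and a low pair. Hypoxia+Nitrate 1 and 4, which also held the largest mitochondrial shares, were both above Hypoxia+Nitrate 2 and 3 for all 43 called members in CPM and for 39 as a share of nuclear protein-coding counts. Hypoxia 3 was the lowest Hypoxia library for 33 of the 43 and Hypoxia 2 the highest for 36. Summed over all members, the share of nuclear protein-coding counts was 1.35%, 0.652%, 0.668% and 1.72% in Hypoxia+Nitrate 1 to 4, against 0.255%, 0.320%, 0.122% and 0.172% in Hypoxia 1 to 4. Without Hypoxia+Nitrate 1 and 4, 43 members were called higher and 1 lower, with Cox8c the lower one and a median log2 fold change of 2.22. Of all genes tested in that fit 10.1% were higher and 17.6% lower. Leaving out Hypoxia 1 kept the median at 3.94, but 21 members were called higher, against 1.95% of all genes tested, and none lower, against 3.61%. The 22 members that lost their call there were Sdha, Sdhb, Sdhc, Sdhd, Cyc1, Uqcrc1, Cycs, Cox5b, Cox6a1, Cox6c, Cox7a1, Cox7a2l, Cox7b, Atp5a1, Atp5b, Atp5d, Atp5e, Atp5g1, Atp5g3, Atp5j2, Atp5l and Atp5o. Without Hypoxia 1 and 2 together 16 members were called higher and Cox8c lower, against 1.51% of all genes higher and 8.74% lower.

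Promoter sequences are shown for 5 members. Atp5g1, Atp5g2 and Atp5g3 encode the same subunit, and their counts ranked differently between libraries. Part of that order rests on counts near the receptor background. In Hypoxia 3 Atp5g1 stood at 0.983 and Atp5g3 at 0.797 times it. Whether the promoters bear on the order was not tested. Cox6a1 had the highest level per kb, and Cycs is the carrier between complexes III and IV. Each window runs from 250 bases before to 50 bases after the start of transcription in RefSeq (GRCm38.p6), read 5′ to 3′ on the gene's strand, which is the minus strand for all 5. The windows are chr11:96075582-96075881, chr15:102670998-102671297, chr2:73911277-73911576, chr5:115348909-115349208 and chr6:50566520-50566819. Capitals mark a match to 1 of 5 motifs known from promoters of respiratory genes: NRF1 (GCGCATGCG), ETS (CCGGAAGT), YY1 (AAGATGGCG), CRE (TGACGTCA) and ERR (TCAAGGTCA), each searched on both strands.

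Atp5g1: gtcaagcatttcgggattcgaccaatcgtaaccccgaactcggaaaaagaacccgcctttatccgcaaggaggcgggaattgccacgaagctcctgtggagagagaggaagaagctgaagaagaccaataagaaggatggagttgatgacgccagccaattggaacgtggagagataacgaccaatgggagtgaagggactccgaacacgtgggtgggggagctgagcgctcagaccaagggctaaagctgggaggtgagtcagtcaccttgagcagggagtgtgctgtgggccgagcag
Atp5g2: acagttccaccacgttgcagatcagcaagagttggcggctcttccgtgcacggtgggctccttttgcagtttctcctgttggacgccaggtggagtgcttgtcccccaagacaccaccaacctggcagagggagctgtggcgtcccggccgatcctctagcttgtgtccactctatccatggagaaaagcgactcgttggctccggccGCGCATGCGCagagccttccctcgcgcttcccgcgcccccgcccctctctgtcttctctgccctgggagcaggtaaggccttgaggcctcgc
Atp5g3: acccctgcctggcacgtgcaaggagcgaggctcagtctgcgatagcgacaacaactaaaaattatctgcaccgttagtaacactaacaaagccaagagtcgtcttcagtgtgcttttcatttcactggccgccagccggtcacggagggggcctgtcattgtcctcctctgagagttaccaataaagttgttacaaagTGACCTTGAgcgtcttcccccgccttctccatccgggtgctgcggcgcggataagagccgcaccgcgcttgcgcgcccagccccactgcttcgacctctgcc
Cox6a1: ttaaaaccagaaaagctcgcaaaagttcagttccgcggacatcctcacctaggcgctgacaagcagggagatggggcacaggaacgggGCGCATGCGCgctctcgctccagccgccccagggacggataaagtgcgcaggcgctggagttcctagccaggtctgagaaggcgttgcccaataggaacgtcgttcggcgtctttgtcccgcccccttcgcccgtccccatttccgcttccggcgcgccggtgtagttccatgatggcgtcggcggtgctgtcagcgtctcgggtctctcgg
Cycs: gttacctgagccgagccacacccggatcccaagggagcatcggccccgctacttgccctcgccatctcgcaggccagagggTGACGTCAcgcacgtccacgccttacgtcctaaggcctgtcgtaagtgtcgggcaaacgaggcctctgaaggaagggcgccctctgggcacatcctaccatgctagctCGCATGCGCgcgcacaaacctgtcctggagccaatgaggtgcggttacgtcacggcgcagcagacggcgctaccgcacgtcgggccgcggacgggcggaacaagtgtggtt

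Atp5g2 and Cox6a1 each hold the NRF1 motif on both strands, as overlapping matches. Atp5g3 holds the ERR motif read on the opposite strand, Cycs holds the CRE motif and, further in, the NRF1 motif, and the Atp5g1 window holds none of the 5. RefSeq windows were found for 37 of the 51 members. The NRF1 motif was in 7 of these (18.9%, in Uqcr11, Uqcrc1, Cycs, Cox6a1, Atp5g2, Atp5k and Atp5l), against 1.75% of 32851 mouse promoter windows of the same length. ETS was in 4 (10.8%, in Uqcr11, Uqcrh, Cox8a and Atp5h), against 3.89% of all windows. CRE was in 2 (5.41%, in Uqcrfs1 and Cycs) against 1.79%, ERR in 2 (5.41%, in Sdhd and Atp5g3) against 0.423%, and YY1 in 1 (2.7%, in Atp5j2) against 1.4%. At least 1 of the 5 was in 14 windows (37.8%), against 8.63% of all. Since the motif forms were set after these windows had been read, the shares are not an independent comparison. A match is a description of the letters and does not show that a factor binds there.

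All 4 genes of complex II were higher in Hypoxia+Nitrate, with log2 fold changes between 3.93 and 4.40 and a median of 4.10. Sdhc (ENSMUSG00000058076, chromosome 1, 171127165 to 171150603), which anchors the enzyme in the membrane, had 169.9, 35.3, 32.3 and 267 CPM in Hypoxia+Nitrate 1 to 4, against 6.68, 12.9, 5.22 and 8.25 CPM in Hypoxia 1 to 4. The lowest Hypoxia+Nitrate library was above the highest Hypoxia library, and Sdhc rose by a log2 fold change of 3.93 (SE 0.79, edgeR adjusted p = 0.00937). The other anchor, Sdhd (ENSMUSG00000000171, chromosome 9, 50596357 to 50603812), had 162, 21.7, 24.1 and 275 CPM in Hypoxia+Nitrate 1 to 4, against 6.68, 10.5, 2.85 and 2.83 CPM in Hypoxia 1 to 4, with a log2 fold change of 4.40 (SE 0.96, edgeR adjusted p = 0.0111). Hypoxia 3 and 4 were the lowest libraries, and the groups did not overlap. Sdhb (ENSMUSG00000009863, chromosome 4, 140961203 to 140979193) carries the iron-sulfur clusters and had 142, 26.2, 18.9 and 239 CPM in Hypoxia+Nitrate 1 to 4, against 7.48, 9.97, 3.64 and 5.78 CPM in Hypoxia 1 to 4. It rose by 3.99 (SE 0.86, edgeR adjusted p = 0.0108) on the log2 scale, again without overlap. Sdha (ENSMUSG00000021577, chromosome 13, 74322254 to 74350280), the flavoprotein that binds succinate, had the highest p of the 4 genes. Its values were 302, 35.8, 41.5 and 489.7 CPM in Hypoxia+Nitrate 1 to 4, against 12.4, 15.3, 5.11 and 13.9 CPM in Hypoxia 1 to 4, and its log2 fold change was 4.22 (SE 0.94, edgeR adjusted p = 0.0122). The Hypoxia counts of these genes lay between 2.32 and 4.14 times the receptor background. Without Hypoxia 1, none of the 4 passed.

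All 9 genes of complex III were higher in Hypoxia+Nitrate, with a median log2 fold change of 3.96. The 5 small supernumerary subunits had a median of 4.19, the core pair Uqcrc1 and Uqcrc2 3.80, and the redox pair Cyc1 and Uqcrfs1 3.83. Uqcr11 (ENSMUSG00000020163, chromosome 10, 80402997 to 80406830), a small subunit, had the lowest p of all members, with 63.9, 18.6, 17.7 and 82.5 CPM in Hypoxia+Nitrate 1 to 4, against 3.34, 4.15, 1.74 and 0.783 CPM in Hypoxia 1 to 4. Hypoxia+Nitrate was higher in every library, and the log2 fold change was 4.19 (SE 0.74, edgeR adjusted p = 0.00917). Uqcrc2 (ENSMUSG00000030884, chromosome 7, 120635176 to 120659524), a core subunit, had 149, 43.3, 36.5 and 243 CPM in Hypoxia+Nitrate 1 to 4, against 8.74, 8.95, 4.11 and 8.61 CPM in Hypoxia 1 to 4. Its log2 fold change was 3.96 (SE 0.73, edgeR adjusted p = 0.00917), and Hypoxia 3 stood well below the other Hypoxia libraries. Uqcrh (ENSMUSG00000063882, chromosome 4, 116066965 to 116075071), the hinge protein that meets cytochrome c1, had 148, 41.1, 49.1 and 179 CPM in Hypoxia+Nitrate 1 to 4, against 9.81, 11.9, 3.69 and 3.31 CPM in Hypoxia 1 to 4, with a log2 fold change of 3.86 (SE 0.72, edgeR adjusted p = 0.00917). Hypoxia 3 and 4 were again the lowest libraries. Cyc1 (ENSMUSG00000022551, chromosome 15, 76343523 to 76346260), cytochrome c1 itself, had 177, 24.96, 29.8 and 276 CPM in Hypoxia+Nitrate 1 to 4, against 8.08, 13.5, 5.32 and 9.395 CPM in Hypoxia 1 to 4. It rose by 3.81 (SE 0.84, edgeR adjusted p = 0.0117) on the log2 scale, and the groups did not overlap. Uqcrc1 (ENSMUSG00000025651, chromosome 9, 108936633 to 108949623), the other core subunit, had the highest p of the complex. Its values were 248, 35.7, 30.7 and 403 CPM in Hypoxia+Nitrate 1 to 4, against 21.03, 17.1, 8.01 and 11.6 CPM in Hypoxia 1 to 4, and its log2 fold change was 3.63 (SE 0.89, edgeR adjusted p = 0.0168). That call was lost without any single one of Hypoxia 1, 3 or 4. Uqcrb showed the largest difference of complex III, with a log2 fold change of 4.74, and the Rieske iron-sulfur protein Uqcrfs1 had 3.86.

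Cycs (ENSMUSG00000063694, chromosome 6, 50562563 to 50566538) encodes somatic cytochrome c, which shuttles electrons from complex III to complex IV and also triggers apoptosis when it leaves the mitochondrion. It had 185, 26.6, 16.6 and 333 CPM in Hypoxia+Nitrate 1 to 4, against 10.3, 8.44, 5.64 and 9.58 CPM in Hypoxia 1 to 4. Hypoxia+Nitrate 1 and 4 were far above Hypoxia+Nitrate 2 and 3, which were still above every Hypoxia library, and the log2 fold change was 4.04 (SE 0.94, edgeR adjusted p = 0.0136). The call was lost without Hypoxia 1 and without Hypoxia 3. Cycs counts are uncertain in another way as well, since 26.1% of the 50-base windows in its transcripts also occur in other annotated genes, 76 in all.

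In complex IV 12 of 16 tested genes rose and 4 did not pass, with a median log2 fold change of 3.63. The 10 widely expressed subunits all rose, with a median of 3.84 and a range of 3.08 to 4.73. Cox7a2 (ENSMUSG00000032330, chromosome 9, 79755361 to 79759878), the widely expressed form of subunit VIIa, had 81.7, 29.1, 30.04 and 112 CPM in Hypoxia+Nitrate 1 to 4, against 6.14, 8.44, 2.42 and 3.85 CPM in Hypoxia 1 to 4, with a log2 fold change of 3.60 (SE 0.64, edgeR adjusted p = 0.00917). The groups did not overlap. Cox4i1 (ENSMUSG00000031818, chromosome 8, 120668222 to 120674207), the common form of subunit IV and the largest nuclear subunit, had 559, 121, 173 and 587 CPM in Hypoxia+Nitrate 1 to 4, against 16.2, 29.5, 5.27 and 13.6 CPM in Hypoxia 1 to 4. It rose by 4.48 (SE 0.83, edgeR adjusted p = 0.00917) on the log2 scale. Every Hypoxia+Nitrate library was again above every Hypoxia library. Cox8a (ENSMUSG00000035885, chromosome 19, 7215153 to 7217616), the common form of subunit VIII, had 228, 51, 60.4 and 296 CPM in Hypoxia+Nitrate 1 to 4, against 9.21, 15.6, 3.48 and 7.29 CPM in Hypoxia 1 to 4, with a log2 fold change of 4.16 (SE 0.79, edgeR adjusted p = 0.00917). Hypoxia 3 was the lowest library for Cox4i1 and for Cox8a. Cox6a1 (ENSMUSG00000041697, chromosome 5, 115345642 to 115348981), the common form of subunit VIa, had 296, 81.99, 116 and 366 CPM in Hypoxia+Nitrate 1 to 4, against 5.87, 36.5, 14.9 and 14.6 CPM in Hypoxia 1 to 4, with a log2 fold change of 3.58 (SE 0.76, edgeR adjusted p = 0.0106). Here Hypoxia 1 was the lowest library and Hypoxia 2 stood far above the other Hypoxia libraries. Cox6b1 (ENSMUSG00000036751, chromosome 7, 30616861 to 30626151), the common form of subunit VIb, had 134, 19.6, 14.97 and 200.2 CPM in Hypoxia+Nitrate 1 to 4, against 3.405, 5.96, 2.21 and 2.29 CPM in Hypoxia 1 to 4. It showed the largest difference of complex IV, a log2 fold change of 4.73 (SE 0.92, edgeR adjusted p = 0.00917). Cox6c had the smallest difference among the called subunits of the enzyme, 3.08. Cox7a2l, which helps to join complexes III and IV into supercomplexes, rose by 3.37 (SE 0.72, edgeR adjusted p = 0.0105) on the log2 scale.

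Of the 7 isoforms of complex IV known from particular tissues 4 could be tested and 1 rose. Cox7a1 (ENSMUSG00000074218, chromosome 7, 30184144 to 30186078), known from heart and skeletal muscle, was the one that rose. It had 51.5, 7.73, 10.8 and 95.5 CPM in Hypoxia+Nitrate 1 to 4, against 1.34, 4.51, 3.06 and 1.08 CPM in Hypoxia 1 to 4, and its log2 fold change was 4.05 (SE 0.88, edgeR adjusted p = 0.0112), without overlap between the groups. Cox6a2 (ENSMUSG00000030785, chromosome 7, 128205435 to 128206387), also a heart and skeletal muscle form, had 0.568, 0.739, 0.653 and 0 CPM in Hypoxia+Nitrate 1 to 4, against 0.467, 1.31, 1.74 and 1.26 CPM in Hypoxia 1 to 4. Its log2 fold change of -1.28 (SE 1.08, edgeR adjusted p = 0.378) did not pass. In limma-voom with quality weights it was called lower, at -2.61 (limma adjusted p = 0.0427), as were 15089 of the 35431 genes in that fit. Over the alternatives the adjusted p of Cox6a2 ran up to 0.980. In Hypoxia+Nitrate 4 it had no count at all, and the groups overlapped. Cox8b, a further muscle form, was too low to test and had 0, 0.512, 1.09 and 1.17 CPM in Hypoxia+Nitrate 1 to 4, against 0.534, 0.291, 0.685 and 0.241 CPM in Hypoxia 1 to 4, with the groups overlapping. Cox4i2 (ENSMUSG00000009876, chromosome 2, 152754173 to 152765037), a form of subunit IV known from lung and from cells at low oxygen, had 2.06, 2.84, 4.74 and 2.34 CPM in Hypoxia+Nitrate 1 to 4, against 0.668, 0.655, 3.11 and 1.69 CPM in Hypoxia 1 to 4. The groups overlapped and its log2 fold change was 0.96 (SE 0.78, edgeR adjusted p = 0.357). Cox6b2 (ENSMUSG00000051811, chromosome 7, 4751792 to 4753094), known from testis, had 6.75, 6.88, 0.980 and 7.17 CPM in Hypoxia+Nitrate 1 to 4, against 1.27, 1.75, 2.16 and 1.45 CPM in Hypoxia 1 to 4, with a log2 fold change of 1.71 (SE 0.70, edgeR adjusted p = 0.0947). Hypoxia+Nitrate 3 was the lowest of all 8 libraries, the other 3 of its group were above every Hypoxia library, and without that library Cox6b2 passed. Cox7b2 and Cox8c, likewise known from testis, had 0 counts in every Hypoxia+Nitrate library, which allows up to 3 counts each or 0.146 to 0.213 CPM. In Hypoxia 1 to 4 Cox7b2 had 7, 3, 4 and 30 counts and Cox8c 7, 9, 11 and 22, which is 1.196 and 1.58 times the receptor background. With no filter on low counts both were tested and called lower in Hypoxia+Nitrate, as were 11654 of the 54176 genes in that fit. The edgeR adjusted p was 0.0126 for Cox8c and 0.0195 for Cox7b2. No fold is given, since every Hypoxia+Nitrate library was at 0 and the Hypoxia counts were near the background. Cox6c2 (ENSMUSG00000066491, chromosome 12, 56373593 to 56373823), annotated as a processed pseudogene, had 0, 0.398, 0.599 and 2.0 CPM in Hypoxia+Nitrate 1 to 4, against 1.001, 0.291, 0.105 and 0.662 CPM in Hypoxia 1 to 4 and the highest p of the complex, with a log2 fold change of 0.55 (SE 1.20, edgeR adjusted p = 0.744).

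Marker lists of tissues that carry these isoforms did not all behave alike. None of 8 striated muscle markers passed, and they summed to 36.8 to 53.5 CPM in Hypoxia+Nitrate and 31.98 to 36.8 CPM in Hypoxia. Smooth muscle markers all rose, 6 of 6 with a median log2 fold change of 2.63, against 18.5% of nuclear protein-coding genes called higher. They summed to 1342 to 2946 CPM in Hypoxia+Nitrate and 63.1 to 426 CPM in Hypoxia. None of 4 brown fat markers passed, and they summed to 10.1 to 42.3 CPM in Hypoxia+Nitrate and 15.4 to 22.6 CPM in Hypoxia. Ppargc1a (log2 fold change 1.21) made up most of the Hypoxia+Nitrate sum, with 40.2, 8.93, 8.55 and 40.7 CPM in Hypoxia+Nitrate 1 to 4. Ucp1 (-1.79), Cidea (-1.70) and Elovl3 (-1.33) went the other way. Of 4 tested testis markers 2 were lower in Hypoxia+Nitrate, against 12.7% of all genes tested. All 6 testis markers summed to 7.03 to 29.9 CPM in Hypoxia+Nitrate and 8.95 to 22.8 CPM in Hypoxia. Nearly all of the Hypoxia+Nitrate sum was Tnp2, with 7.03, 23.5, 29.4 and 13.4 CPM in Hypoxia+Nitrate 1 to 4. Its log2 fold change of 0.92 did not pass, and the other tested testis markers had negative ones. A single testis marker was at 0 in every Hypoxia+Nitrate library. Whether smooth muscle or another cell type supplied the Cox7a1 counts was not tested.

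**Figure D2:**
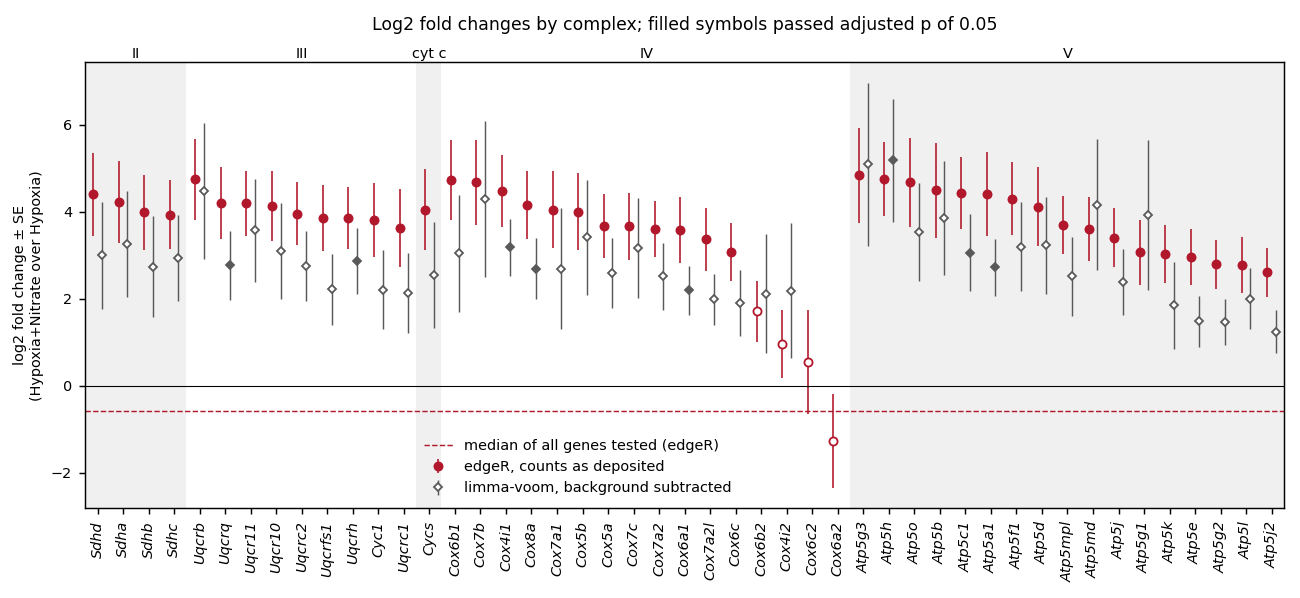
Log2 fold change of Hypoxia+Nitrate over Hypoxia for each tested member, grouped by complex, with bars of 1 standard error, from edgeR on the deposited counts (circles) and from limma-voom after background subtraction (diamonds). Filled symbols passed an adjusted p of 0.05, and the dashed line is the edgeR median of all genes tested. In edgeR the 43 called members lie between 2.61 and 4.84, and the 4 others between -1.28 and 1.71.

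All 17 tested genes of complex V were higher in Hypoxia+Nitrate, with a median log2 fold change of 3.70 and the widest spread among called members. The 5 subunits of the catalytic head and central stalk had a median of 4.41 and the 4 of the peripheral stalk, which holds the head still, 4.49. The 5 small membrane subunits had a median of 3.03. Atp5h (ENSMUSG00000034566, chromosome 11, 115415689 to 115419962), subunit d of the peripheral stalk, had 125, 33.1, 33.1 and 185 CPM in Hypoxia+Nitrate 1 to 4, against 2.403, 6.98, 0.896 and 3.67 CPM in Hypoxia 1 to 4. It rose by 4.76 (SE 0.85, edgeR adjusted p = 0.00917) on the log2 scale, and Hypoxia+Nitrate 4 was the highest library. Atp5c1 (ENSMUSG00000025781, chromosome 2, 10056016 to 10080510), the rotating gamma subunit, had 212, 48.1, 40.2 and 351 CPM in Hypoxia+Nitrate 1 to 4, against 8.34, 11.2, 4.53 and 6.02 CPM in Hypoxia 1 to 4, with a log2 fold change of 4.44 (SE 0.82, edgeR adjusted p = 0.00917). Every Hypoxia+Nitrate library was above every Hypoxia library. Atp5mpl (ENSMUSG00000021290, chromosome 12, 111961375 to 111966977), a small proteolipid of the membrane part, had 68.5, 17.2, 26.2 and 117 CPM in Hypoxia+Nitrate 1 to 4, against 5.74, 5.67, 2.95 and 3.31 CPM in Hypoxia 1 to 4, with a log2 fold change of 3.70 (SE 0.67, edgeR adjusted p = 0.00917). Again the groups did not overlap. Atp5b (ENSMUSG00000025393, chromosome 10, 128083273 to 128090391), the catalytic beta subunit, had the highest p of the complex, with 939, 137, 124 and 1352 CPM in Hypoxia+Nitrate 1 to 4, against 39.6, 50.6, 5.11 and 18.1 CPM in Hypoxia 1 to 4. Its log2 fold change was 4.49 (SE 1.10, edgeR adjusted p = 0.0165), and the call was lost without Hypoxia 1 and without Hypoxia 4. Atp5a1, the alpha subunit, averaged 912 ± 782 CPM in Hypoxia+Nitrate and 42.9 ± 27 CPM in Hypoxia (mean ± SD, n = 4 each) and had the highest CPM of any member. The smallest differences among called members were those of the small membrane subunits Atp5j2 (2.61) and Atp5l (2.78) and of the c-ring gene Atp5g2 (2.79).

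The c ring turns as protons pass and is made of copies of 1 protein, for which Atp5g1, Atp5g2 and Atp5g3 encode the same mature sequence behind different import signals. Atp5g3 (ENSMUSG00000018770, chromosome 2, 73908447 to 73911326) had 385, 61.1, 49.3 and 626 CPM in Hypoxia+Nitrate 1 to 4, against 13.2, 19.1, 1.897 and 5.06 CPM in Hypoxia 1 to 4. Its log2 fold change of 4.84 (SE 1.09, edgeR adjusted p = 0.0124) was the largest of all members. The Hypoxia libraries spread widely, with Hypoxia 3 and 4 lowest. Atp5g1 (ENSMUSG00000006057, chromosome 11, 96068852 to 96075670) had 75.8, 16.3, 14.7 and 144 CPM in Hypoxia+Nitrate 1 to 4, against 7.08, 8.07, 5.27 and 9.46 CPM in Hypoxia 1 to 4, with a log2 fold change of 3.07 (SE 0.75, edgeR adjusted p = 0.0164). The call was lost without Hypoxia 1 and without Hypoxia 3. Atp5g2 (ENSMUSG00000062683, chromosome 15, 102662864 to 102672352) had 89.9, 30.8, 41.7 and 122 CPM in Hypoxia+Nitrate 1 to 4, against 9.61, 15.6, 7.17 and 8.79 CPM in Hypoxia 1 to 4, with a log2 fold change of 2.79 (SE 0.56, edgeR adjusted p = 0.00934). All 3 rose without overlap, but their order differed between libraries: the count of Atp5g1 was below that of Atp5g3 in every Hypoxia+Nitrate library and above it in Hypoxia 3 and 4. As a percentage of the Atp5g3 count, Atp5g1 stood at 19.7%, 26.6%, 29.8% and 22.9% in Hypoxia+Nitrate 1 to 4, against 53.5%, 42.4%, 278% and 187% in Hypoxia 1 to 4. The Hypoxia+Nitrate values lay close together and all below the Hypoxia values, a difference in mean log2 ratio of -2.09 (exact permutation test, 2-sided p = 0.0286, adjusted p = 0.0667, n = 4 each). On the same scale Atp5g2 stood at 23.3%, 50.5%, 84.8% and 19.5% in Hypoxia+Nitrate 1 to 4, against 72.7%, 81.7%, 378% and 174% in Hypoxia 1 to 4. These overlapped, with a difference of -1.91 (exact permutation test, 2-sided p = 0.0857, adjusted p = 0.100, n = 4 each). The Hypoxia counts of Atp5g1 were 1.42 times the receptor background, the lowest ratio of any called member, against 3.92 times for Atp5g3. The expected background was also taken off both genes, with counts under 0.5 set to a floor of 0.5. The difference was then -1.01 for Atp5g1 (exact permutation p = 0.371) and -3.50 for Atp5g2 (exact permutation p = 0.0857). In Hypoxia 3 Atp5g1 and Atp5g3 both fell to this floor, so the sizes of these differences hang on the floor in that library.

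Ratios between isoforms of complex IV were compared the same way, which removes the scaling of the libraries. With 4 libraries against 4 the smallest possible p is 0.0286, and after adjustment over the 7 pairs none was under 0.05. As a percentage of the Cox6a1 count, Cox6a2 stood at 0.192%, 0.902%, 0.564% and 0% in Hypoxia+Nitrate 1 to 4, against 7.95%, 3.59%, 11.7% and 8.68% in Hypoxia 1 to 4. The difference in mean log2 ratio was -5.52 (exact permutation test, 2-sided p = 0.0286, adjusted p = 0.0667, n = 4 each), with no overlap. Relative to Cox8a, Cox8b stood at 0%, 1.003%, 1.803% and 0.396% in Hypoxia+Nitrate 1 to 4, against 5.797%, 1.86%, 19.7% and 3.31% in Hypoxia 1 to 4, a difference of -4.06 (exact permutation test, 2-sided p = 0.0286, adjusted p = 0.0667, n = 4 each), also with no overlap. As a percentage of the Cox4i1 count, Cox4i2 stood at 0.369%, 2.36%, 2.73% and 0.399% in Hypoxia+Nitrate 1 to 4, against 4.12%, 2.22%, 59% and 12.4% in Hypoxia 1 to 4. That difference was -3.22 (exact permutation test, 2-sided p = 0.0857, adjusted p = 0.100, n = 4 each), and Hypoxia 2 lay among the Hypoxia+Nitrate values. Relative to Cox6b1, Cox6b2 stood at 5.04%, 35.2%, 6.55% and 3.58% in Hypoxia+Nitrate 1 to 4, against 37.3%, 29.3%, 97.6% and 63.2% in Hypoxia 1 to 4, with a difference of -2.67 (exact permutation test, 2-sided p = 0.0571, adjusted p = 0.100, n = 4 each). Hypoxia+Nitrate 2 lay among the Hypoxia values. Cox7a1 against Cox7a2 was the exception, at 63.04%, 26.6%, 35.9% and 85.5% in Hypoxia+Nitrate 1 to 4, against 21.7%, 53.4%, 126% and 28.1% in Hypoxia 1 to 4. The groups overlapped, with a difference of 0.07 (exact permutation test, 2-sided p = 0.914, adjusted p = 0.914, n = 4 each). The numerators other than Cox7a1, Atp5g1 and Atp5g2 had between 0 and 147 counts per library, and in Hypoxia they stood at 1.19 to 1.98 times the receptor background. With the expected background taken off and the same floor of 0.5, the difference for Cox6a2/Cox6a1 was -4.81 (exact permutation p = 0.0286). It was -2.09 for Cox8b/Cox8a (exact permutation p = 0.40) and -1.11 for Cox4i2/Cox4i1 (exact permutation p = 0.60). For Cox6b2/Cox6b1 it was -1.16 (exact permutation p = 0.457) and for Cox7a1/Cox7a2 0.26 (exact permutation p = 0.80). At the floor in Hypoxia were Cox4i2 in Hypoxia 1 and 2, Cox6a2 and Cox6b2 in Hypoxia 1 and Cox8b in Hypoxia 2 and 4. Cox6a2 in Hypoxia+Nitrate 4 and Cox8b in Hypoxia+Nitrate 1 were at it too. These differences thus depend on the floor as well.

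**Figure D3:**
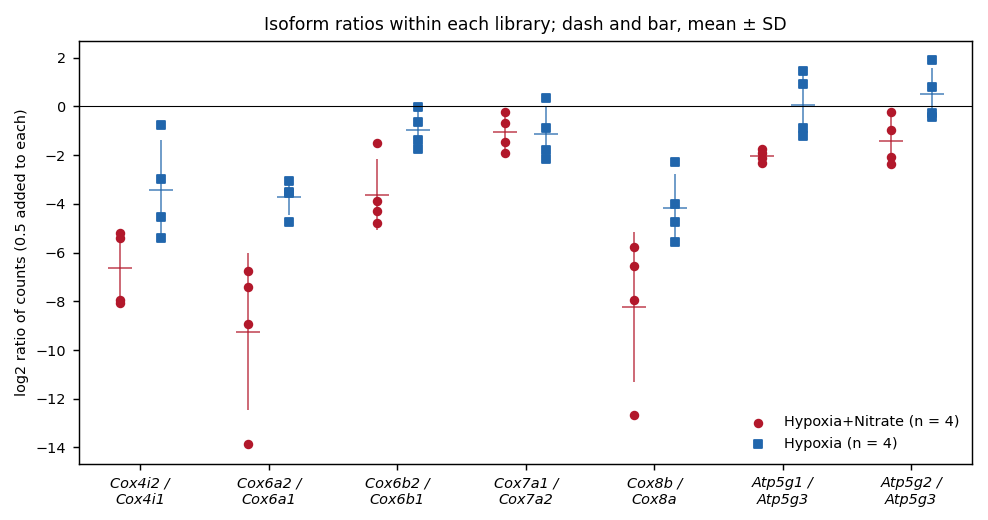
Log2 ratio of counts within a library for the 7 isoform pairs, with a point per library, a dash at the group mean and a bar of 1 SD either way (n = 4 each), Hypoxia+Nitrate left of Hypoxia. The groups are apart for Cox6a2/Cox6a1, Cox8b/Cox8a and Atp5g1/Atp5g3 and overlap for the other pairs.

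The complexes were compared by the share each took of all member counts in a library. Complex V took 44.2% to 50.5% in Hypoxia+Nitrate and 45.2% to 48.8% in Hypoxia, complex IV 21.99% to 35.2% in Hypoxia+Nitrate and 24.4% to 29.2% in Hypoxia and complex III 14.03% to 15.4% in Hypoxia+Nitrate and 14.1% to 16.9% in Hypoxia. Complex II took 5.801% to 9.56% in Hypoxia+Nitrate and 7.41% to 8.85% in Hypoxia, and cytochrome c 0.825% to 2.51% in Hypoxia+Nitrate and 1.29% to 2.75% in Hypoxia. The groups overlapped for each of the 5, but these shares include background. In Hypoxia 3 the expected background was 1931 of the 4270 member counts. After its subtraction complex II took 5.62% to 9.55% in Hypoxia+Nitrate and 3.92% to 7.79% in Hypoxia. Complex IV took 21.99% to 35.6% in Hypoxia+Nitrate and 25.8% to 34.2% in Hypoxia. The groups still overlapped for each of the 5. With 4 libraries per group, such overlap does not show that the proportions were the same. The widest 95% Wilson interval of the shares before subtraction was 2.99 percentage points, for complex V in Hypoxia 3. Such intervals cover counting error only.

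**Figure D4:**
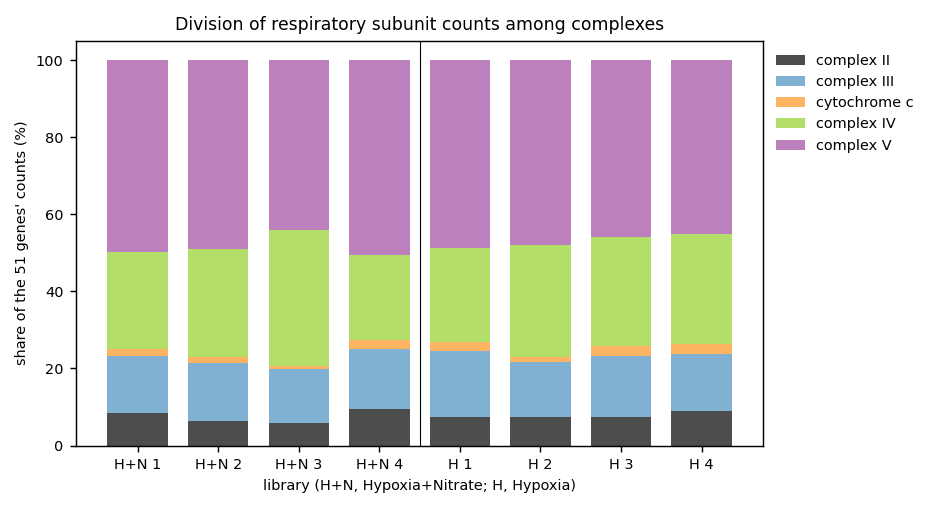
Share of all member counts taken by each complex, in percent, as a stacked bar for each library, Hypoxia+Nitrate left of Hypoxia. Expected background is not subtracted. The groups overlap for every complex, and complex V holds 44.2% to 50.5% in all 8 libraries.

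Levels per kb of exonic length kept much of their order between the groups. In Hypoxia+Nitrate the highest were Cox6a1, Atp5a1, Cox8a, Cox4i1 and Atp5b, and 4 of these 5 were also among the 5 highest in Hypoxia, where Cox7a2l took the place of Atp5b. Of the 10 highest, 7 were shared. Cox6a1 had a level of 306 ± 196 CPM per kb in Hypoxia+Nitrate and 25.6 ± 18.6 CPM per kb in Hypoxia (mean ± SD, n = 4 each). Atp5a1 followed with 291 ± 249.6 CPM per kb in Hypoxia+Nitrate and 13.7 ± 8.61 CPM per kb in Hypoxia, and Cox8a with 257 ± 198 CPM per kb in Hypoxia+Nitrate and 14.4 ± 8.21 CPM per kb in Hypoxia. The SD in Hypoxia+Nitrate exceeded the distance between these 3 levels. That SD also holds the gap of Hypoxia+Nitrate 1 and 4 over Hypoxia+Nitrate 2 and 3, which all called members share. It therefore cannot judge the order of the 3 genes, and their order within single libraries was not tested. Among called members the lowest level in Hypoxia+Nitrate was that of Atp5g1, with 12.7 ± 12.4 CPM per kb in Hypoxia+Nitrate and 1.52 ± 0.358 CPM per kb in Hypoxia. Exonic lengths cover all annotated transcripts of a gene, retained introns included, so a gene with long unused exons has a low level on this scale.

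In Hypoxia+Nitrate the called members stood between 28.9 and 674 times the receptor background (median 148), and in Hypoxia between 1.42 and 23.4 times (median 4.14). Atp5g1 had the lowest ratio in each group and Cox6a1 the highest. After the expected background was subtracted, the members' share of nuclear protein-coding counts was 1.38%, 0.788%, 0.768% and 1.75% in Hypoxia+Nitrate 1 to 4, against 0.470%, 0.448%, 0.141% and 0.223% in Hypoxia 1 to 4, still without overlap. By single gene, 35 of the 47 tested members had every Hypoxia+Nitrate library above every Hypoxia library in that subtracted share, against 5.86% of nuclear protein-coding genes. The 12 exceptions were Uqcrc1, Cycs, Cox6c, Cox7a2l, Atp5b, Atp5d, Atp5k, Atp5l and the 4 members not called above. As a share of all counts, mitochondrial and ribosomal DNA reads included, 36 members were apart, against 3.16% of all genes.

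With limma-voom on the subtracted counts, 8 of 45 members passed, all higher, against 4.73% of the 14809 genes tested, and the median log2 fold change was 2.75. The 8 were Uqcrh, Uqcrq, Cox4i1, Cox6a1, Cox8a, Atp5a1, Atp5c1 and Atp5h. Cox4i1 rose by 3.18 (SE 0.66, limma adjusted p = 0.0107) on the log2 scale of these counts, and its subtracted values, in CPM over nuclear protein-coding genes alone, were 847, 527, 677 and 775 in Hypoxia+Nitrate 1 to 4, against 205, 221, 41.6 and 108 in Hypoxia 1 to 4. Cox6a1, whose Hypoxia counts were furthest above the background, rose by 2.19 (SE 0.57, limma adjusted p = 0.0318). Atp5h rose by 5.18 (SE 1.42, limma adjusted p = 0.0382), with subtracted values of 189.8, 141, 127 and 244 in Hypoxia+Nitrate 1 to 4, against 8.91, 44.5, 0 and 19.2 in Hypoxia 1 to 4, and its Hypoxia counts before subtraction were 36, 96, 17 and 61. The same fit without subtraction called 43 members higher and Cox8c lower, with a median of 3.21, against 14.1% of the nuclear protein-coding genes tested higher and 32.3% lower. The median standard error was 1.00 with subtraction and 0.668 without it. With the background share of each library as a covariate no member and no gene passed in edgeR, although 2648 genes had an unadjusted p under 0.05. That share did not overlap between the groups, at 2.79% to 23.6% in Hypoxia+Nitrate and 39.8% to 64.9% in Hypoxia. This fit therefore cannot tell group and background share apart. The median standard error of members was 1.53 in it, against 0.81 without the covariate. With the covariate the median log2 fold change was 0.82 over members, 0.63 above the 0.18 of all genes, where it had been 4.52 above without the covariate. By complex it was 0.08 in complex II, 1.17 in complex III, -0.10 for cytochrome c, 0.77 in complex IV and 0.85 in complex V.

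**Figure D5:**
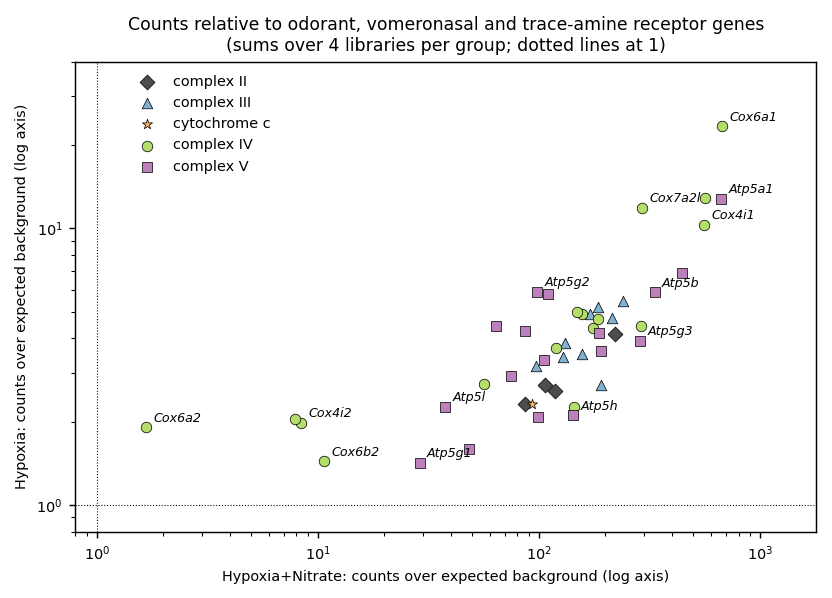
Counts of each tested member divided by the background expected for its length, summed over 4 libraries, in Hypoxia+Nitrate (horizontal, log axis) and Hypoxia (vertical, log axis). Called members lie at 28.9 to 674 times in Hypoxia+Nitrate but at 1.42 to 23.4 times in Hypoxia.

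Beyond the subunits, the assembly factors were counted in the same fit, in which 18.5% of nuclear protein-coding genes were called higher. None of 4 assembly factors of complex II passed (median log2 fold change 0.59). For complex III 3 of 6 rose (median 1.48), with Uqcc2 at 2.23 (SE 0.49, adjusted p = 0.0115) and Uqcc3 at 2.12 (SE 0.58, adjusted p = 0.0246) in edgeR. For complex IV 7 of 24 rose (median 1.66). Lowest in p, though not the 2 largest in fold change, were Cox20 and Cox14. Cox20, which handles the mitochondrially encoded subunit 2, stood at 4.01 (SE 0.64, adjusted p = 0.00917) and Cox14 at 2.52 (SE 0.48, adjusted p = 0.00917) in edgeR. For complex V 3 of 6 rose (median 2.28), with Atpif1, the inhibitor that stops ATP hydrolysis, at 3.97 (SE 0.84, adjusted p = 0.0101) and Fmc1 at 2.54 (SE 0.65, adjusted p = 0.0189) in edgeR. The difference between these lists and the subunits was not tested.

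Of the genes that work beside the complexes, Ndufa4, a subunit of complex IV once counted to complex I, rose by 3.56 (SE 0.68, adjusted p = 0.00917) on the log2 scale in edgeR. All 6 carriers and channels for ATP, ADP and phosphate rose (median 4.01), with Vdac1 at 3.81 (SE 0.74, adjusted p = 0.00917) and Vdac3 at 2.32 (SE 0.49, adjusted p = 0.0102). Of 9 supercomplex and hypoxia factors 5 rose (median 2.22), among them Higd1a at 2.80 (SE 0.50, adjusted p = 0.00917) and Higd2a at 4.03 (SE 0.92, adjusted p = 0.0131). Of 12 regulators of nuclear respiratory genes 2 rose, a share near that 18.5% of nuclear protein-coding genes (median 1.05), Esrra at 3.76 (SE 0.82, adjusted p = 0.0111) and Gabpa at 1.53 (SE 0.50, adjusted p = 0.0456). The Gabpa exons overlap those of Atp5j on the opposite strand over 397 bases.

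The 6 mitochondrially encoded partners, from cytochrome b to ATP synthase subunits 6 and 8, had wide errors. The median log2 fold change was 7.69, yet 1 of 6 passed, mt-Atp8 at 8.10 (SE 2.59, adjusted p = 0.0435) in edgeR, while mt-Co3 had 7.31 (SE 2.90, adjusted p = 0.0858). These genes summed to 18656 to 2135970 TMM-scaled CPM in Hypoxia+Nitrate and 1311 to 8059 in Hypoxia. Scaling enters these sums: Hypoxia+Nitrate 1 had a TMM factor of 0.220 and Hypoxia+Nitrate 4 of 0.393. Library size alone, without such factors, left 8 members called higher, against 0.686% of all genes, and none lower, against 4.39%, with a median of 2.62 over members and -1.07 over all genes.

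Some members share sequence with other genes, and their counts are uncertain to that extent. Of the 50-base windows in their transcripts, 41.6% occur in other annotated genes for Atp5o, 38.3% for Atp5g2, 25.5% for Uqcrb, 22.1% for Cox7c and 19.9% for Atp5h. Atp5o has 52.1% of its exonic length free of other genes, since the second Atp5o identifier and others overlap it. Uqcrc2 shares 504 exonic bases with Pdzd9 on the opposite strand and Cox5a 269 with Gm26631. The strand setting of the counting is not given in the sources used here, so reads of such partners cannot be told apart.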

How the data were processed

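Bulk RNA sequencing of total RNA from small intestine was available for 4 Hypoxia+Nitrate and 4 Hypoxia samples, grouped by the sample titles. TRIzol extraction and a stranded library kit were used, per the labels' protocols, which name islets at the RNA step for these intestinal samples. HISAT, featureCounts 1.5.0-p3, DESeq 1.8.3 and build GRCm38 come from the submitters' processing notes. Aligner version, annotation and strand setting are not given there. Raw read counts per gene were deposited by the authors for 55421 genes, and the 8 per-sample columns were identical to those of the joint table.

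Counts were tested in R 4.3.3 with edgeR 4.0.16, after TMM scaling and a filter on low counts (filterByExpr, at least 10 counts and 15 in total), by the quasi-likelihood test without covariates and Benjamini-Hochberg adjustment at 0.05. CPM values carry the TMM factors. Standard errors were derived from the fold change and its F statistic. Isoform ratios were log2 ratios of counts with a pseudocount of 0.5, compared by an exact 2-sided permutation test. After background subtraction a floor of 0.5 took the place of the pseudocount. Wilson intervals came from scipy 1.17.1. Expected background was the receptor genes' count per kb of exonic sequence free of other genes, multiplied by each gene's own length of such sequence, with lengths from GENCODE M21. Alternatives used limma 3.58.1 and DESeq2 1.42.0. Scripts were tested on simulated counts with known changes. Values in every library are given for the 3 members with the lowest p and the one with the highest p in each complex, for Cycs and Cyc1 and for the genes of the isoform pairs. Other genes come from pathway and marker lists, with up to 2 named per pathway list by lowest p. Marker genes are named where they did not pass or bounded the ratios to the background. Promoter motifs were written in forms of up to 9 letters, set after the windows had been read. The members, lists and tests were chosen with earlier results of these data known. Total counts per library ranged from 5345377 to 63943036. Called members had 136 to 36488 counts per library in Hypoxia+Nitrate and 12 to 1131 in Hypoxia.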

Additional observations from a re-analysis of the deposited data

Results flagged for a closer look

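Among 118 groups of 4 libraries checked, 3 had a library whose gap to its nearest neighbour exceeded Dixon's critical share of the group's range at the 95% level, and chance flags about 1 in 20 groups. Uqcrc2 had 4.11 CPM in Hypoxia 3, far below the 8.61 to 8.95 CPM of the other Hypoxia libraries. Cox6b2 had 0.980 CPM in Hypoxia+Nitrate 3, far below the other Hypoxia+Nitrate libraries. Complex II took 8.85% of member counts in Hypoxia 4, far above the other Hypoxia libraries. The cause was not tested for any of them.

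Among the 7 excluded pseudogene names, Atp5l2-ps had 1.28 to 2.62 CPM in Hypoxia+Nitrate and 0.211 to 1.20 CPM in Hypoxia, so that its lowest Hypoxia+Nitrate value of 1.28 CPM lay above every Hypoxia value. Atp5c1-ps went the other way, with 0 counts in every Hypoxia+Nitrate library and 23, 9, 10 and 34 counts in Hypoxia 1 to 4.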

How the results depend on the processing

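The number of members called was 43 or more, and within 1.5 times in each complex, under RLE and upper-quartile factors, no filter, a filter of 1 CPM in 4 libraries, DESeq2, limma-voom with and without quality weights, nuclear protein-coding genes alone and the replicate block. It was also that high without Hypoxia+Nitrate 1 and 4. Over all genes, 8653 calls compared with 1800 with library size only, 16708 with no filter, 22228 in DESeq2, 15818 in limma-voom, 20696 with quality weights, 2063 after background subtraction, 0 with the covariate (2648 at an unadjusted p under 0.05), 4227 without Hypoxia 1 and 2, and 1932 to 22454 when single libraries were left out. TMM put the median of all genes at -0.58 and that of members 4.52 above it, with 48.1% of calls higher; RLE gave -0.87, 4.58 and 35.0%, upper-quartile factors -0.94, 4.40 and 34.4%, and library size -1.07, 3.69 and 13.5%. Members called numbered 8 with library size only (II 0, III 1, cytochrome c 0, IV 2, V 5), 8 after subtraction (0, 2, 0, 3 and 3 in the same order), 0 with the covariate (0 in each complex), 17 without Hypoxia 1 and 2 (0, 4, 0, 7 and 6), and 21 to 44 when single libraries were left out (II 0 to 4, III 7 to 9, cytochrome c 0 to 1, IV 6 to 13, V 8 to 17). The lowest of these counts was reached without Hypoxia 1 in each case. The cause was not tested.

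The replicate block left 4791 genes and 43 members called. No pairing by number was seen: the correlations of same-numbered samples were 0.051, -0.18, 0.18 and -0.050, and 1 of 4 numbers matched best with itself. With so few numbers this cannot exclude a pairing.

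Of the called members, 6 had negative log2 fold changes with the covariate, none called: Atp5g1 -0.70, Sdha -0.16, Cyc1 -0.49, Cox6a1 -0.16, Cycs -0.10 and Cox7a1 -0.81. That fit cannot tell group and background share apart. Cox6c2 had -0.29 in limma-voom and -0.55 with quality weights. Among isoform ratios, Cox7a1/Cox7a2 was -0.032 with a pseudocount of 5 and -0.28 to 0.56 when single libraries were left out. Cox4i2/Cox4i1 was -3.41 with a pseudocount of 5 and then reached an unadjusted p under 0.05. Subtraction, with its floor of 0.5, left Cox8b/Cox8a at -2.09 and Atp5g1/Atp5g3 at -1.01, no longer past it. It moved Cox4i2/Cox4i1 to -1.11, Cox6b2/Cox6b1 to -1.16 and Atp5g2/Atp5g3 to -3.50. Leaving out single libraries gave -3.89 to -2.33 for Cox4i2/Cox4i1, -6.35 to -3.97 for Cox6a2/Cox6a1, -3.37 to -2.27 for Cox6b2/Cox6b1, -4.89 to -2.59 for Cox8b/Cox8a, -2.52 to -1.62 for Atp5g1/Atp5g3 and -2.30 to -1.43 for Atp5g2/Atp5g3. The fit of limma-voom without subtraction was added after seeing the data.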
